A study of Mus musculus with 11 samples.

Results

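Amino acid breakdown was followed in liver through the 9 mouse genes Hpd, Hgd, Gstz1 and Fah of the tyrosine branch, Pcbd1 of the cofactor cycle of phenylalanine hydroxylation, and Hal, Uroc1, Amdhd1 and Ftcd of the histidine branch. A gene probe belonged to one of them when the RefSeq accession it was designed on was a transcript of that gene. All 9 genes were found, each by 1 probe with 1 spot per array, among 15970 genes tested in all. The livers came from db/db mice, which lack a working leptin receptor and are a model of obesity with diabetes. The 6 anti-GCGR samples are from mice given 5 mg/kg of the monoclonal antibody 3c7.v44, directed against the glucagon receptor, and the 5 PBS samples (replicates 1, 3, 4, 5 and 6) from mice given PBS. The series text calls the comparison animals untreated while the sample labels say PBS. All 11 samples shared the db/db genotype, and no group of lean or wild-type mice was analysed here. Age, sex, treatment schedule and whether animals were pooled are not given in the sources used here. Since nothing states that the replicates were separate animals, each p-value speaks only of the variation among these samples, which may be technical.

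Phenylalanine is hydroxylated to tyrosine with tetrahydrobiopterin as cofactor. Tyrosine then loses its amino group, its ring is oxidised and opened, and the chain is split to fumarate and acetoacetate. Histidine is deaminated to urocanate and opened in further steps to glutamate, handing a formimino group to tetrahydrofolate. Liver carries out most of both routes, and glucagon is known as a hormone that promotes amino acid breakdown there.

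On each array liver RNA was labelled with Cy5 (red) and a reference RNA pooled from mouse sources with Cy3 (green), with the dyes never exchanged. The main value is the log2 ratio of Cy5 over Cy3, so a ratio of 5 means that the liver signal was far above that of the pooled reference. The median Cy5 signal of an array was 85 to 110 scanner units over a local background of 26 to 27, and 66.2 to 77.1% of gene spots were well above background. All 9 probes were well above background in Cy5 on 11 of 11 arrays, with 0 saturated and 0 uneven spots. Hepatocyte markers were present at like levels in both groups, with a mean log2 ratio over 7 measured markers of 5.79 to 6.00 on anti-GCGR arrays and 5.79 to 6.06 on PBS arrays. In bulk liver, fewer cells of a type and less RNA per cell cannot be told apart.

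In the ratio, 0 of the 9 genes passed the test between anti-GCGR and PBS livers (limma, Benjamini-Hochberg adjusted p under 0.05 over all genes), against 14.6% of all genes tested (5.66% lower and 8.98% higher). This count depended on the normalization of each array. With median centring in place of loess, 5 of the 9 passed as lower (Hpd, Fah, Hal, Uroc1 and Amdhd1). Over all genes 581 were then higher and 2145 lower, in place of 1434 and 904, and the median log2 difference of all genes was -0.058. With the ratio computed by the scanner software, 0 of the 9 passed. With loess, 4 of 9 had an unadjusted limma p under 0.05, Hpd, Gstz1, Fah and Hal, all lower in anti-GCGR livers. At that level 12.8% of all genes were lower and 30.5% moved in either direction. The log2 fold change (anti-GCGR minus PBS) was negative for 8 of the 9 and positive for Hgd, with a median of -0.11 over the 9 genes and 0.01 over all genes. In 0 of 9 were the groups free of overlap, against 6.64% of all genes (2.69% lower and 3.95% higher). With the Cy5 channel taken alone, 6 of the 9 passed as lower in anti-GCGR livers, against 6.77% of all genes. With the Cy3 channel alone 2 of the 9 passed as lower, Hpd and Ftcd, against 1.1% of all genes.

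**Figure D1:**
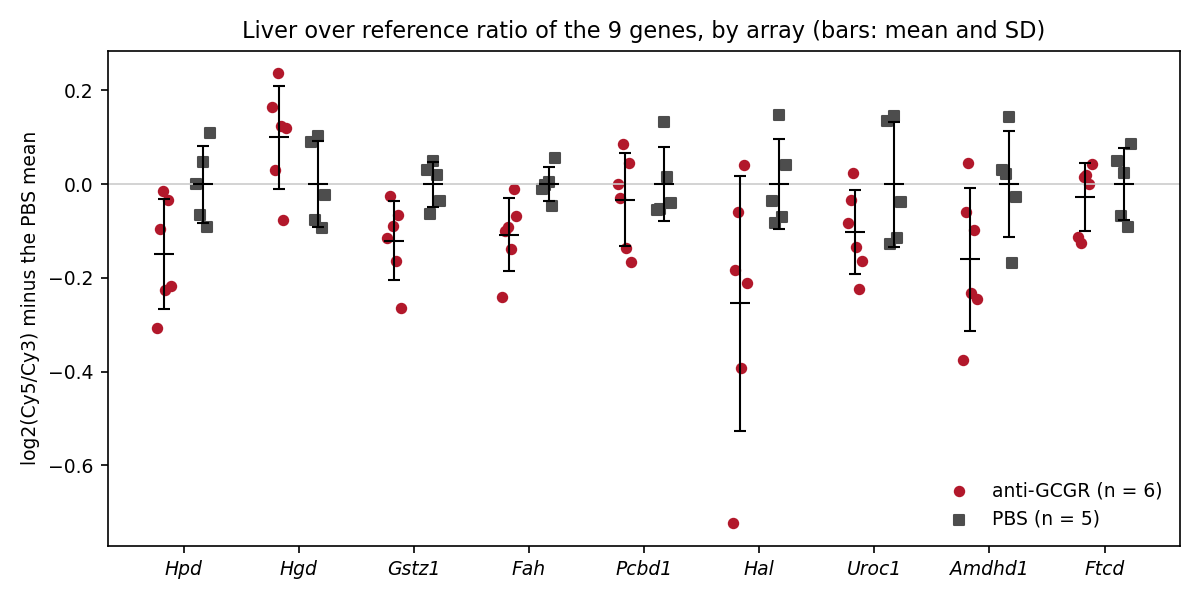
The log2 ratio of Cy5 over Cy3 of each gene on each array, minus the mean of the PBS arrays, for 6 anti-GCGR arrays (circles) and 5 PBS arrays (squares), with bars for the mean and SD. The groups overlap for all 9 genes, and the lowest point is Hal on anti-GCGR replicate 1 at -0.72.

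The first member of the tyrosine branch is Hpd, the dioxygenase that turns hydroxyphenylpyruvate into homogentisate. Its log2 ratio was 5.71 at the lowest, 5.86 at the median and 6.00 at the highest on anti-GCGR arrays, against 6.02, 5.95, 6.07, 5.93 and 6.13 on PBS arrays (replicates 1, 3, 4, 5 and 6). The lowest 4 of the 6 anti-GCGR values lay below all PBS values, and the other two lay inside the PBS range. The fold change was -0.15 ± 0.06 on the log2 scale (SE; 95% interval -0.29 to -0.01; limma adjusted p = 0.138).

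Hgd, the homogentisate dioxygenase that opens the ring, was the one gene with a positive difference. Its log2 ratio was 5.31, 5.51 and 5.62 (lowest, median, highest) on anti-GCGR arrays, against PBS values of 5.48, 5.31, 5.49, 5.29 and 5.36. Among its anti-GCGR values, 4 lay above the highest PBS value and 0 below the lowest. The difference of 0.10 ± 0.06 did not pass (95% interval -0.04 to 0.24, limma adjusted p = 0.324).

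Gstz1 encodes the isomerase of maleylacetoacetate, a member of the glutathione transferase family. Its ratio was 4.87, 5.03 and 5.11 (lowest, median, highest) in anti-GCGR livers, against 5.16, 5.07, 5.18, 5.15 and 5.10 in PBS livers. All anti-GCGR arrays but replicate 2 lay below every PBS array. The fold change of -0.12 ± 0.05 had a limma adjusted p of 0.135.

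Fah, the hydrolase that ends the branch by splitting fumarylacetoacetate, was the member with the narrowest spread among PBS arrays. Anti-GCGR arrays gave 2.51, 2.65 and 2.74 at the lowest, median and highest, against 2.74, 2.75, 2.75, 2.70 and 2.80 on PBS arrays. Again 5 of the 6 anti-GCGR values were below the lowest PBS value, and replicate 5 lay inside the PBS range. The fold change was -0.11 ± 0.05 (limma adjusted p = 0.159).

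Pcbd1 encodes the dehydratase that helps restore tetrahydrobiopterin after hydroxylation, and the same protein is known as a partner of the transcription factor HNF1. It read 3.96, 4.11 and 4.21 on anti-GCGR arrays, against 4.07, 4.08, 4.26, 4.14 and 4.09 on PBS arrays. Of the anti-GCGR arrays 2 lay below all PBS values and 0 above them. Its difference was -0.03 ± 0.06 (95% interval -0.16 to 0.10, limma adjusted p = 0.759).

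The histidine branch starts with Hal, the ammonia-lyase that makes urocanate. Its spread over the anti-GCGR arrays was the widest of the 9 genes (SD 0.27), with 4.96, 5.49 and 5.73 (lowest, median, highest) in anti-GCGR livers, against 5.65, 5.60, 5.83, 5.61 and 5.73 in PBS livers. Replicate 1 was the lowest of the anti-GCGR arrays, and replicate 5 lay level with the second highest PBS array. The fold change was -0.25 ± 0.11 (95% interval -0.50 to -0.01, limma adjusted p = 0.152), the most negative of the 9. Without anti-GCGR replicate 5 it was -0.31 and passed, with a limma adjusted p of 0.0498.

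Uroc1, the urocanate hydratase, gave 5.53, 5.64 and 5.77 on anti-GCGR arrays, against 5.89, 5.62, 5.90, 5.64 and 5.71 on PBS arrays. PBS replicates 1 and 4, which share a slide by the names of their scans, were the high ones. The other PBS arrays lay among the anti-GCGR values. The difference was -0.10 ± 0.07 (limma adjusted p = 0.337).

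Amdhd1, the imidazolonepropionase of the next step, read 6.14, 6.35 and 6.56 in anti-GCGR livers, against 6.55, 6.54, 6.66, 6.35 and 6.49 in PBS livers. Of the anti-GCGR arrays 3 lay below all PBS arrays, and the fold change was -0.16 ± 0.08 (limma adjusted p = 0.187). With no offset in the background correction it was -0.041 (limma adjusted p = 0.739). In the assembly used for gene names, Amdhd1 and Hal are neighbouring genes.

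Ftcd, whose enzyme passes the formimino group to tetrahydrofolate and releases ammonia, gave 6.04, 6.17 and 6.21 in anti-GCGR livers, against 6.22, 6.10, 6.19, 6.07 and 6.25 in PBS livers. The groups overlapped over most of their range. Its difference of -0.03 ± 0.05 was the smallest in size of the 9 (95% interval -0.14 to 0.09, limma adjusted p = 0.785).

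The arrays sat on 3 slides that each held both groups, so each difference could also be read within a slide, with no test. Slide and position were inferred from the names of the scans, since the sample labels give neither. Within slides 1, 2 and 3 the difference of Hal was -0.61, -0.00059 and -0.11, that of Hpd -0.29, 0.03 and -0.14, and that of Amdhd1 -0.39, 0.09 and -0.10. Slide 1 therefore carried the most negative value for these genes, and slide 2 values above 0 for Hpd and Amdhd1. Hgd was positive within every slide, at 0.05, 0.07 and 0.23. On slides 1 and 3 PBS samples took positions 1 and 2, and on slide 2 PBS replicate 5 took position 2. Anti-GCGR samples took positions 3 and 4 on every slide, so position and group cannot be told apart.

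To show the sequence in front of these genes, the 250 bases before a start of transcription were taken from RefSeq (GRCm38.p6) by gene symbol. This gave 10 windows for the 9 genes. The windows of Hgd, Gstz1, Uroc1 and Amdhd1 lie wholly or partly within the span of their gene, so some may hold transcribed bases. The windows of Hal, Ftcd and Hpd are printed, 5′ to 3′ on the strand of the gene, because these genes had the most negative difference in the ratio, the smallest one in size, and the largest difference in Cy5. Hal lies in chr10:93488518-93488767 (plus strand), Ftcd in chr10:76575398-76575647 (plus strand) and Hpd in chr5:123182724-123182973 (minus strand). Capitals mark every match, on either strand, to the 7 motifs searched.
Hal: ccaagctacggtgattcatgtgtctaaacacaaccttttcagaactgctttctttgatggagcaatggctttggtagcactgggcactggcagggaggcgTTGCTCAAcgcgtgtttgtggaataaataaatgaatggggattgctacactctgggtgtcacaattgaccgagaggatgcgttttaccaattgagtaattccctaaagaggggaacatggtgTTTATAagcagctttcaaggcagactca
Ftcd: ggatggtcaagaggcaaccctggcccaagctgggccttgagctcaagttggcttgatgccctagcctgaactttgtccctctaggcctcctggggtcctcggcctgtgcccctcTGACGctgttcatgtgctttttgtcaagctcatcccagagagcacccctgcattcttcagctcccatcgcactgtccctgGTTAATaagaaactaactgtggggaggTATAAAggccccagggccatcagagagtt
Hpd: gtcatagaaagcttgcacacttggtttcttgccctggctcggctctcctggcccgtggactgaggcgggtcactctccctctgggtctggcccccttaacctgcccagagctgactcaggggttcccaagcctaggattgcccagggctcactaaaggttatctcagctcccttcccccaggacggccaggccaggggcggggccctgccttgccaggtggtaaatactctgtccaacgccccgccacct
In Hal the first match is to the C/EBP motif TTGCNNAA, 150 bases before the start, and the second is TATAAA on the opposite strand. In Ftcd the matches are the partial cAMP response element TGACG, 136 bases before the start, the HNF1 motif GTTAAT and TATAAA, 29 bases before the start. Hpd held no match. Over all 32851 windows of this length the shares with a match were 9.56% for TTGCNNAA, 17.8% for TGACG, 6.43% for GTTAAT and 12.4% for TATAAA. Among the 9 genes, TTGCNNAA was found in Hal and Hgd, TGACG in Ftcd and Gstz1, GTTAAT in Ftcd and Pcbd1, and TATAAA in Ftcd, Hal, Hgd and Pcbd1. The full cAMP response element TGACGTCA, which contains TGACG (1.55% of all windows), the FOX motif GTAAACA (3.17%) and the HNF4 motif CAAAGTCCA (0.384%) had no match in any of the 10 windows. A match is a description of letters in a window and was not tied to the expression values.

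Behind the ratios, the 2 channels moved together on several spots. The Cy5 signal of the Hpd spot was 11336.5, 20405.75 and 44011 scanner units (lowest, median, highest) on anti-GCGR arrays, against 40514, 49322.5, 48834.5, 40816 and 44709 units on PBS arrays. Its Cy3 signal was 233.5, 361.25 and 717 units on anti-GCGR arrays, against 645, 751, 647.5, 571.5 and 676.5 units on PBS arrays. In both colours 5 of the 6 anti-GCGR arrays lay below every PBS array, and replicate 5 lay inside the PBS range. With quantile normalization of the Cy5 channel alone, Hpd fell by 1.15 ± 0.26 on the log2 scale in anti-GCGR livers, which is 2.22-fold lower (limma adjusted p = 0.0158). The Cy3 channel alone, treated the same way, differed by -0.93 ± 0.20 (limma adjusted p = 0.0387).

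**Figure D2:**
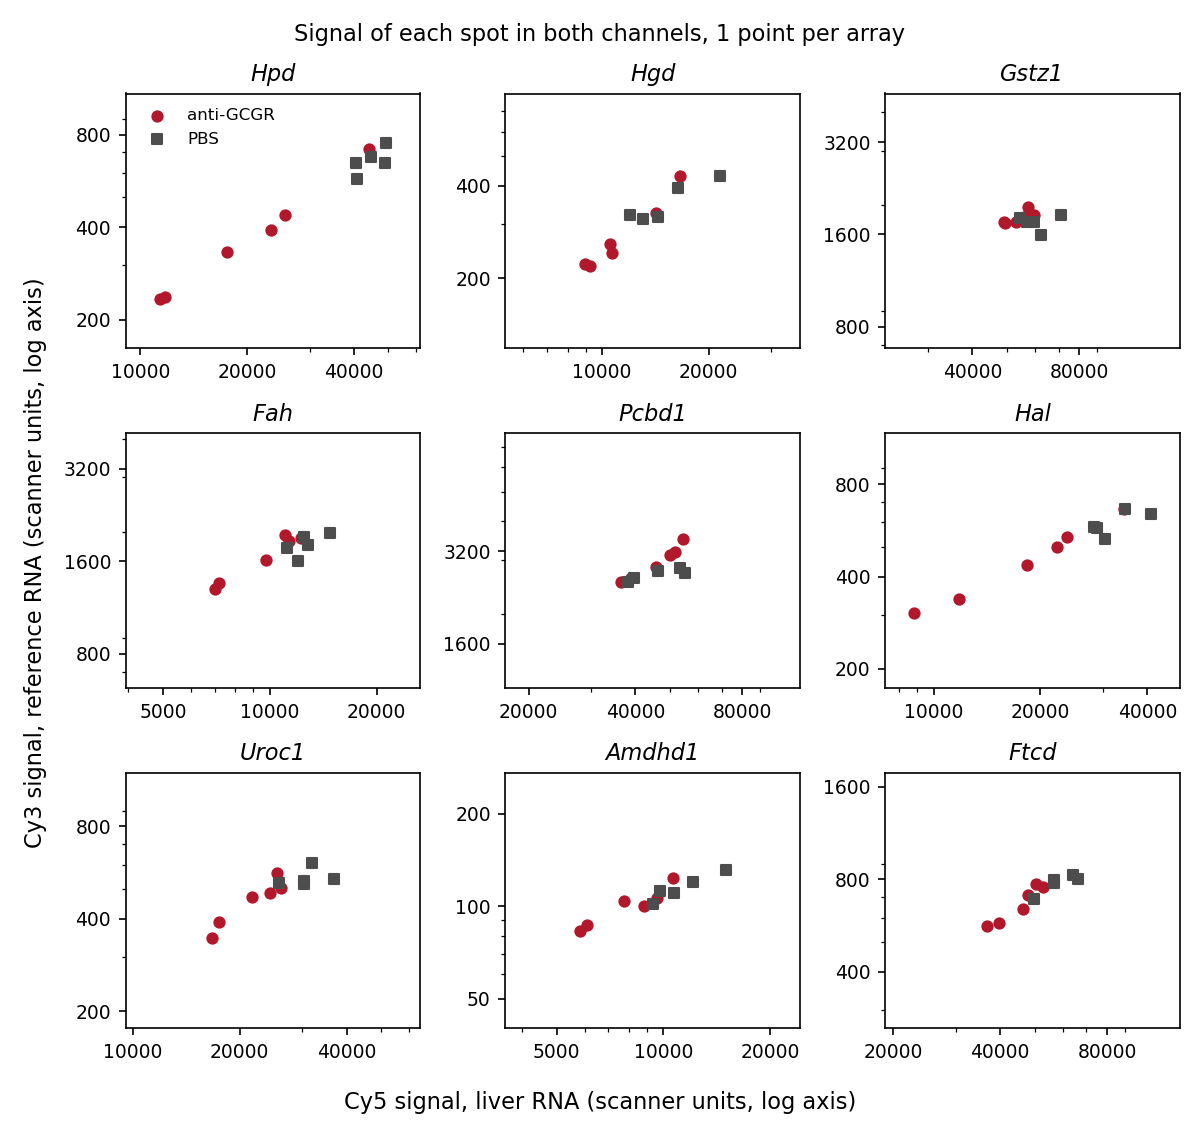
Cy5 signal (liver RNA, horizontal) against Cy3 signal (reference RNA, vertical) of each of the 9 spots in scanner units on log axes, 1 point per array, with anti-GCGR as circles and PBS as squares. In Hpd, Hal and Hgd the points of the low anti-GCGR arrays are lower in both colours. In Pcbd1 the groups lie over each other in Cy5. Its Cy3 signal had a median of 2974.5 and a highest value of 3498 on anti-GCGR arrays, against 2716.5 and 2811.5 on PBS arrays.

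The Cy5 signal of Hal was 8783, 20328 and 34421 units on anti-GCGR arrays, against 28278, 34547, 41055, 30436 and 28832.5 units on PBS arrays, and its Cy3 signal was 305, 467.5 and 662 units, against 579.5, 665, 637, 530 and 576 units. Only replicate 5 of the anti-GCGR arrays reached the PBS range in Cy5, and replicates 2 and 5 did so in Cy3. In Cy5 alone Hal fell by 0.84 ± 0.25, or 1.79-fold (limma adjusted p = 0.0439), and in Cy3 alone the difference of -0.50 did not pass (adjusted p = 0.0807).

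Uroc1 was the gene with the smallest p in Cy5. Its spots read 16679.5, 22958.25 and 26212 units on anti-GCGR arrays, against 30298.5, 31952, 36840, 30347 and 25792 units on PBS arrays. These signals overlapped at 1 PBS array, and after quantile normalization the groups did not overlap, as for 3.44% of all genes in the lower direction. Uroc1 fell by 0.50 ± 0.09 in Cy5, or 1.42-fold (limma adjusted p = 0.00585), beside a Cy3 difference of -0.35 that did not pass (adjusted p = 0.0614).

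Amdhd1 fell by 0.52 ± 0.13 in Cy5 alone, or 1.44-fold (limma adjusted p = 0.0192), on signals of 5810, 8273.25 and 10632.5 units in anti-GCGR livers, against 9319.5, 12104, 14981, 10684 and 9778.5 units in PBS livers. Its Cy3 signal was 83 to 124 units on anti-GCGR arrays and 102 to 131.5 units on PBS arrays, and differed by -0.20 (adjusted p = 0.192). Ftcd fell by 0.33 ± 0.08 in Cy5, or 1.26-fold (adjusted p = 0.0244), and its Cy3 signal differed by -0.35 ± 0.07 (adjusted p = 0.0358), the larger of the pair. The 4 histidine genes thus all passed as lower in Cy5, against 6.77% of all genes, at 1.26-fold to 1.79-fold. Their ratios did not pass under loess, while those of Hal, Uroc1 and Amdhd1 passed with median centring (adjusted p = 0.0394, 0.0419 and 0.0298).

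In the tyrosine branch 2 of 4 passed as lower in Cy5 alone, Hpd and Fah, against 6.77% of all genes. Fah had 7033, 10402.25 and 12224 units in anti-GCGR livers, against 11164, 12811, 14822.5, 12028.5 and 12468 units in PBS livers, and fell by 0.41 ± 0.11 in Cy5 (limma adjusted p = 0.0305) beside a Cy3 difference of -0.28 (adjusted p = 0.0703). Hgd had the same difference of -0.42 in Cy5 (adjusted p = 0.0816) and in Cy3 (adjusted p = 0.162), neither of which passed. Its sign thus turned between the ratio and the channel. Gstz1 differed by -0.12 in Cy5 (adjusted p = 0.121) and Pcbd1 by 0.01 (95% interval -0.16 to 0.19, adjusted p = 0.952).

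**Figure D3:**
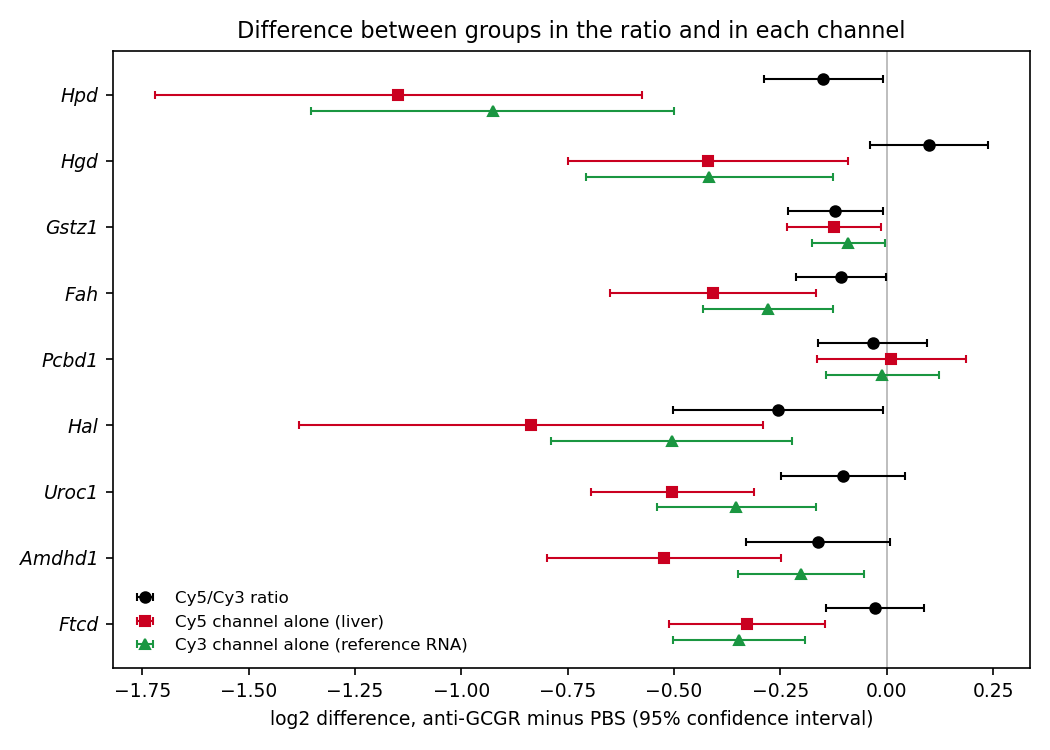
Difference between anti-GCGR and PBS livers (log2, anti-GCGR minus PBS, with 95% confidence interval) of each gene in the Cy5 over Cy3 ratio, in the Cy5 channel alone and in the Cy3 channel alone. For Hpd the ratio sits at -0.15 while Cy5 sits at -1.15 and Cy3 at -0.93.

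Counted over the 9 genes, Cy5 alone gave 6 lower, against 6.77% of all genes lower and 14.4% in either direction, and the median difference was -0.42 for the 9 genes and 0.0045 for all genes. Cy3 alone gave 2 of 9 lower, Hpd and Ftcd, against 1.1% of all genes lower and 1.52% in either direction, with medians of -0.35 and 0.011. The groups were free of overlap in Cy3 for 0 of the 9 genes, against 1.38% of all genes in the lower direction. Both channel fits use the same spots as the ratio, so the 3 readings are not independent. Within slides 1, 2 and 3 the Cy5 difference was -1.76, -0.41 and -1.18 for Hpd, -1.56, -0.15 and -0.73 for Hal, -0.77, -0.28 and -0.42 for Uroc1 and -0.39, -0.34 and -0.31 for Ftcd. It was negative within every slide for those genes and for Hgd, Gstz1, Fah and Amdhd1 as well. On slide 2 each difference rests on PBS replicate 5 as the only PBS array.

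Single arrays weighed on the Cy5 result. When each of the 11 arrays was left out in turn, Hpd and Uroc1 passed in 11 of 11 fits, Amdhd1 in 10, Ftcd in 8, Fah in 4 and Hal in 1, the fit without anti-GCGR replicate 5. The number of genes passing ranged from 2 without PBS replicate 3 to 7 without anti-GCGR replicate 5, and was 3 without PBS replicate 4 and 3 without PBS replicate 6. The same replicate 5 had Cy5 signals within the PBS range for Hpd, Hgd, Gstz1, Fah, Pcbd1, Hal, Amdhd1 and Ftcd, and just below it for Uroc1, at 25517 units. For Hpd and Hal no other anti-GCGR array lay in that range. Replicate 2 also lay in it for Gstz1, Fah, Pcbd1, Uroc1 and Ftcd, and replicate 3 for Hgd, Gstz1, Pcbd1 and Amdhd1. Replicates 1 and 6 did so for Pcbd1.

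Genes far brighter in liver than in the pooled reference were compared as a class, since 7 of the 9 genes belong to it. Among 364 genes with a mean log2 ratio above 5, the Cy3 and Cy5 differences correlated across genes at r = 0.80 with a slope of 0.42. Among 10103 genes with a mean log2 ratio from -1 to 1 they correlated at 0.25 with a slope of 0.09. Genes share arrays and are not independent replicates. Cy3 alone passed for 8.52% of genes in the class above 5 and for 0.663% in the class from -1 to 1, and Cy5 alone passed for 29.1% and 10.4%. Per the labels the Cy3 channel held the same kind of reference RNA on every array. The reason its signal followed that of Cy5 on these spots was not tested.

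**Figure D4:**
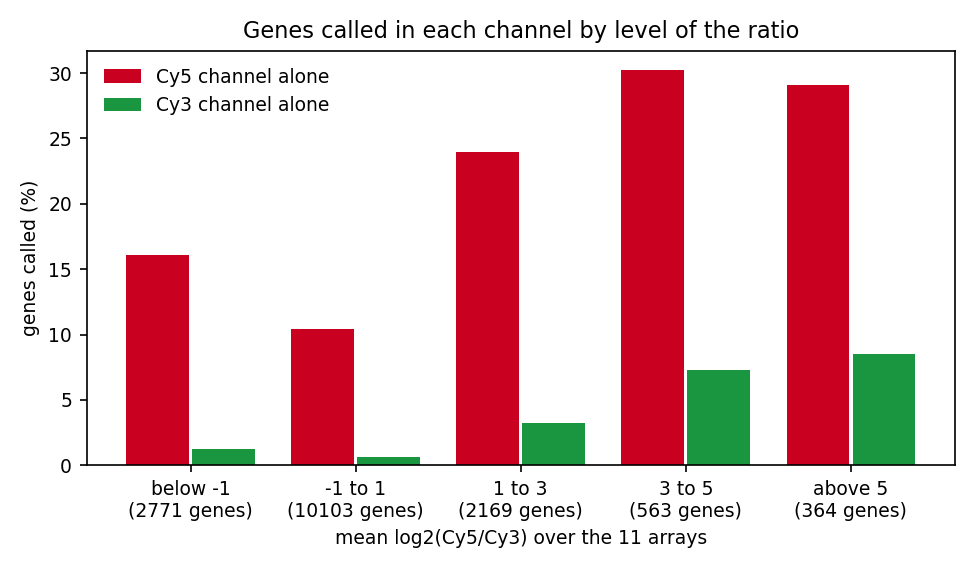
Share of genes (%) with an adjusted p under 0.05 between anti-GCGR and PBS arrays in the Cy5 channel alone and in the Cy3 channel alone, by class of the mean log2 ratio over the 11 arrays. The Cy3 share is 0.663% in the class from -1 to 1 and 8.52% in the class above 5, which holds 7 of the 9 genes.

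The steps upstream and beside these genes were read from a list of 10 further genes of phenylalanine, tyrosine and tetrahydrobiopterin handling, all of them measured. In the ratio 2 of the 10 fell, Qdpr among them, and 0 rose, with a list median of -0.09. Qdpr, the reductase that returns dihydrobiopterin to tetrahydrobiopterin, read 2.96, 3.14 and 3.86 (lowest, median, highest) in anti-GCGR livers, against 3.60, 3.85, 3.84, 3.81 and 3.55 in PBS livers. Replicate 5 was the only anti-GCGR array not below all PBS arrays, and it lay above them all. Qdpr fell by 0.49 ± 0.14 (limma adjusted p = 0.0337), and its other probe gave -0.42 (adjusted p = 0.0615 over all probes). With 1 array left out it passed in 2 of 11 fits.

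Tat, the aminotransferase that starts tyrosine breakdown, gave -0.30 ± 0.10 in the ratio and did not pass (limma adjusted p = 0.0629). It passed with median centring (-0.48, adjusted p = 0.0099), with array weights (adjusted p = 0.0152), without PBS replicate 5 (adjusted p = 0.0333) and without anti-GCGR replicate 5 (adjusted p = 0.0104), and was -0.0028 with the scanner software's ratio. Its ratios were 5.28, 5.44 and 5.82 in anti-GCGR livers, against 5.85, 5.80, 5.92, 5.55 and 5.93 in PBS livers. In Cy5 alone it fell by 1.53 ± 0.41 (adjusted p = 0.0275), beside a Cy3 difference of -1.17 (adjusted p = 0.0853). In Cy5 alone the list thus held 3 genes that passed as lower, Tat and Qdpr among them, and 0 higher.

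The second list held 13 genes of other uses of histidine and of the one-carbon units it gives, of which 12 were measured. In the ratio 2 rose, Hnmt and Cndp2, and 0 fell, with a median of 0.09. Cndp2, a dipeptidase that splits dipeptides such as carnosine, read 0.77, 0.97 and 1.002 in anti-GCGR livers, against 0.68, 0.61, 0.60, 0.63 and 0.73 in PBS livers. The groups did not overlap. Cndp2 rose by 0.29 ± 0.05 (limma adjusted p = 0.00645), passed in all 11 fits with 1 array left out, and gave 0.20 on its other probe (adjusted p = 0.151 over all probes). In Cy5 alone it rose by 0.28 (adjusted p = 0.0342) beside a Cy3 difference of 0.03.

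Hnmt, which methylates histamine, had 4.94, 5.11 and 5.35 in anti-GCGR livers, against 4.79, 4.27, 4.82, 4.65 and 4.74 in PBS livers, again with no overlap. It rose by 0.45 ± 0.10 (limma adjusted p = 0.0143) and passed in all 11 fits with 1 array left out. Hnmt did not pass with the scanner software's ratio (0.35, adjusted p = 0.157) and with no offset in the background correction (0.49, adjusted p = 0.052), and its other probe gave 0.20 (adjusted p = 0.238 over all probes). In Cy5 alone its difference of 0.21 did not pass (adjusted p = 0.132). Aldh1l1, the folate enzyme that oxidises formyl-tetrahydrofolate, did not pass in the ratio (-0.20, limma adjusted p = 0.0698). In Cy5 alone it fell by 0.37 (adjusted p = 0.0193), beside a Cy3 difference of -0.31 (adjusted p = 0.0582).

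Beside these, 3 of 10 genes of tryptophan and kynurenine breakdown fell and 0 rose in the ratio, with a median of -0.14 and the smallest p for Kyat3 (-1.07, limma adjusted p = 0.00678). Of 22 measured genes of branched-chain amino acid breakdown 8 fell and 1 rose, with a median of -0.18. In Cy5 alone 5 of the 10 tryptophan and kynurenine genes fell and 1 rose, with a median of -0.33. Of the 22 branched-chain genes 5 fell and 2 rose in Cy5 alone, with a median of -0.23. The 9 genes had 0 passing and a median of -0.11 in the ratio, and 6 lower, 0 higher and a median of -0.42 in Cy5 alone. They share all arrays with these lists, and the difference between the lists was not tested.

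Markers of other liver cells moved between the same groups. Of 5 stellate cell markers 3 rose (Col1a1, Lrat and Pdgfrb), and their mean log2 ratio was -0.89 to -0.27 on anti-GCGR arrays and -1.25 to -0.93 on PBS arrays. Also 1 of 5 endothelial markers (Stab2), 1 of 5 Kupffer cell markers (Clec4f) and 1 of 2 measured erythroid markers (Hba-a1) rose, while 0 of 5 cholangiocyte, 0 of 5 lymphocyte and 0 of 3 adipocyte markers passed. Of 7 hepatocyte markers Serpina1c fell by 0.26 in the ratio, and in Cy5 alone 0 fell and 2 rose. The part of cell makeup in the values of the 9 genes was not tested.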

How the data were processed

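The members and gene lists were chosen with earlier results of these data known. Per the labels, liver cRNA (Cy5) and a pooled mouse reference (Cy3) were hybridised together, and per the submitters' processing notes arrays were read with Agilent Feature Extraction 11. The deposited files give, per the file headers, the median intensity of each spot and its local background, unnormalized, with flags scored 0 or 1 as other values, and the scanner software's log10 ratio. The authors also deposited a table of log2 ratios, made by steps that the sources used here do not state. These ratios had Cy5 on top and were not centred by gene. They correlated with the values computed here at 0.999964 or more over 39429 probes, and had column medians of -0.0028 to 0.0081.

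Intensities were corrected with normexp (offset 50) and normalized by loess in limma 3.58.1 (R 4.3.3), with control spots at weight 0 and uneven spots left out. The design had named mean signals, and the files hold medians. Of 39429 gene probes, 26581 matched 20144 genes through their accession in a table of GRCm38.p6, in place of a gene name column, and 12848 matched none. Probes had to be well above background in liver (Cy5) on 5 or more of the 11 arrays, and the brightest kept probe stood for its gene, which left 15970 genes. Groups were compared over all 11 arrays with lmFit and eBayes, two-sided, with a Benjamini-Hochberg threshold of 0.05. Each channel alone was background-corrected, quantile normalized and tested the same way. The fit was tested on simulated data. The number of arrays limits the precision.

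Named were the 9 members, each gene of the 2 further lists that passed in the ratio, Tat and Qdpr in any case, and the gene of smallest p in each comparison list, except that some results of the lists are not reported here. Aldh1l1, markers and the printed promoters were chosen after their values were seen. Tf and Hbb-b1 had no matched probe. Promoter windows were cut to the 250 bases before the listed start, short of the bases after that start that the design had included. Same-numbered samples deviated together at r = -0.13 to 0.14, so the numbers were not taken as pairs.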

Additional observations from a re-analysis of the deposited data

How the results depend on the processing

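All 9 members are reported with the ratio as the main value. Over 25 other settings of the ratio, 11 of them with 1 array left out, Gstz1, Fah and Hal kept their negative sign. Not all of these could change it. Settings on the filter, uneven spots, choice of probe, eBayes variance and scaling between arrays after loess returned the fold changes of the main fit. The replicate block returned those of the fit without anti-GCGR replicate 2. Members passing numbered 5 with median centring in place of loess (Hpd -0.33, Fah -0.24, Hal -0.42, Uroc1 -0.25 and Amdhd1 -0.32), 6 with Cy5 alone and 0 to 1 with 1 array left out, the 1 being Hal without anti-GCGR replicate 5. The sign turned for Hgd with median centring (-0.071) and in Cy5 alone (-0.42), for Pcbd1 in Cy5 alone (0.011) and without PBS replicate 4 (0.00013, over a range of -0.057 to 0.00013 with 1 array left out), and with the scanner software's ratio for Hpd (0.12), Uroc1 (0.015), Amdhd1 (0.017) and Ftcd (0.00034). In Cy5 alone, Pcbd1 was -0.024 with median centring, -0.045 after loess and Aquantile, -0.0095 with the slide as a block, -0.022 without PBS replicate 1, -0.034 without PBS replicate 6, -0.0056 without anti-GCGR replicate 3 and -0.021 without anti-GCGR replicate 5, over a range of -0.034 to 0.049 with 1 array left out. These channel settings were chosen after seeing the data. Members passing in Cy5 alone numbered 2 with a replicate block, Uroc1 and Ftcd, and 2 to 7 with 1 array left out (3 without PBS replicate 4 and 3 without PBS replicate 6). Over all genes, 1434 were higher and 904 lower (61.3% higher). There were 581 and 2145 with median centring (21.3% higher), 979 and 1185 with the scanner software's ratio (45.2% higher), 2226 and 1560 with array weights, 714 and 335 with the replicate block, and 782 to 2294 and 458 to 1574 with 1 array left out, the lowest without PBS replicate 1 and the highest without anti-GCGR replicate 5. The replicate block gave 0 members in the ratio. Same-numbered samples correlated best with their own number for 1 of 5 numbers. The cause of these changes was not tested.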
